A study of Mus musculus with 10 samples.

Results

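Mouse acute myeloid leukemia (AML) tumors driven by an MLL fusion were compared with tumors driven by Cbfb::MYH11. The MLL side held 6 libraries, 3 from MLL::AF9 tumors (named 2, 47 and 42) and 3 from MLL::ENL tumors (NO, RL and L), and the other side held 2 libraries from Cbfb::MYH11 tumors (30 and 27). These 8 of the 10 libraries of the series were chosen by their AML subtype label, and the contrast was the mean of the 2 MLL groups minus the Cbfb::MYH11 mean. The remaining 2 libraries, from WT bone marrow selected as cKit+, entered the shared model and nothing else. Each library was bulk RNA sequencing of magnetically selected cells from 1 C57BL/6 mouse, and the tumor cells came from spleen.

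The groups differed in more than their fusion. MLL::AF9 mice were labelled MLL-AF9 +/-, came from a purchased transgenic line and were untreated. For MLL::ENL, a retrovirus carried the fusion into LSK progenitors of WT donors, which were transplanted with WT marrow into lethally irradiated WT hosts, so that cells of the host and of the helper marrow could be present, and these mice were untreated. Cbfb::MYH11 mice were labelled Mx+; Hygr+, in which Cre under the interferon-responsive Mx1 promoter switches on a conditional knock-in allele, and received Poly IC at postnatal day 45. Mx1-Cre acts in many blood and other cells. Ages at collection were not given in the sources used here. Cell selection was labelled Mac1/Gr1/cKIT for the MLL tumors, cKit_ for Cbfb::MYH11 30 and cKit+ for Cbfb::MYH11 27, and what cKit_ stands for is not given in the sources used here. Model, Poly IC and selection label therefore follow the fusion and cannot be told apart from it, and transcripts of the selection antigens (Kit, Itgam with its partner Itgb2, and the Ly6 genes read by Gr1) are given as a description of what was selected. Sex, judged by transcripts as given below, nearly followed the fusion too.

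As background, MLL (KMT2A) is a histone methyltransferase that keeps HOX genes active during blood development. Its fusions to AF9 or ENL recruit transcription elongation factors and the methyltransferase DOT1L to MLL target genes, among them Hoxa9 and Meis1, and leukemias with these fusions often look monocytic. CBFB::MYH11, the product of inv(16), joins the partner of RUNX1 to smooth muscle myosin heavy chain and impairs RUNX1 in differentiating myeloid cells. Human inv(16) AML often shows abnormal eosinophils.

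Tumor libraries held between 12134917 and 19345838 estimated counts. Mitochondrial transcripts took 2.23 to 10.64% of counts in tumor libraries and hemoglobin transcripts at most 0.96%. Levels are given as CPM, read counts scaled to the depth of each library. Summed over the B cell list, CPM was 246 and 271 in the Cbfb::MYH11 libraries and 347 to 6051 in the MLL libraries, with MLL::AF9 42 and 2 far above the other 4. The part of these other cells in the results below was not tested. Both Cbfb::MYH11 libraries were labelled female, and 4 Y-linked genes summed to at most 0.174 CPM in them. Of the 6 MLL libraries, 5 held Y-linked transcripts at 121 to 175 CPM, and the library labelled MLL::AF9 42 held none. These went against the label in 4 libraries, since MLL::AF9 42 was labelled male, and the labels of MLL::ENL RL, MLL::ENL NO and MLL::AF9 47 said female. The deposited tables of MLL::AF9 42 and 47 carry each other's number, so values given for these 2 libraries may be exchanged. With the numbers exchanged, labels and Y-linked transcripts would differ in 2 libraries, MLL::ENL RL and NO.

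Of 14875 genes tested, 1959 were higher (13.2%) and 1847 lower (12.4%) in the MLL tumors, 25.6% in either direction (edgeR quasi-likelihood test, Benjamini-Hochberg adjusted p under 0.05). The median absolute log2 fold change was 3.24 among the higher and 2.01 among the lower genes, and 744 higher and 507 lower genes differed at least 16-fold. The median over all tested genes was 0.08. Libraries of the 2 sides did not overlap for 2908 genes higher in MLL (19.5%) and 3031 lower (20.4%). The call count rested on both Cbfb::MYH11 libraries, since 1073 higher and 1148 lower genes were called without Cbfb::MYH11 30, and 674 and 765 without Cbfb::MYH11 27. In every leave-one-out fit, 602 higher and 632 lower genes were called. The first principal component of the tumor libraries carried 52.56% of the variance and placed the Cbfb::MYH11 libraries at -163 and -194 and the MLL libraries between 49.5 and 70.3. Labels give 1 mouse per library, so the spread between libraries is that between mice.

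The 4 marker genes given for the contrast separated the 2 sides in every library. Itgam, which encodes the integrin CD11b of granulocytes and monocytes, measured between 342 and 1004 CPM (median 531) in the 6 MLL libraries and 11 and 6.04 CPM in Cbfb::MYH11 30 and 27 (log2 fold change 6.15, SE 0.71, adjusted p = 0.00036). Csf3r, the receptor for granulocyte colony-stimulating factor, was between 70.7 and 313 CPM (median 135) in the 6 MLL libraries and was at 6.8 and 2.21 CPM in Cbfb::MYH11 30 and 27 (log2 fold change 5.11, SE 0.61, adjusted p = 0.00044). In the opposite direction, Ms4a2, the beta chain of the high-affinity IgE receptor of mast cells and basophils, was between 0.574 and 3.16 CPM (median 1.16) in the 6 MLL libraries and at 841 and 747 CPM in Cbfb::MYH11 30 and 27 (log2 fold change -9.09, SE 0.46, adjusted p = 8.3e-06). None of these 3 genes had overlapping libraries, and all 3 calls held in each leave-one-out fit. Gata2, a transcription factor of stem cells and mast cells, was at 0.99, 9.68 and 14.8 CPM in MLL::AF9 2, 47 and 42, at 2.51, 9.16 and 69.9 CPM in MLL::ENL NO, RL and L, and at 376 and 431 CPM in Cbfb::MYH11 30 and 27 (log2 fold change -4.73, SE 0.96, adjusted p = 0.0065). The groups did not overlap either, and DESeq2 gave it no adjusted p. Kit, a selection antigen, was between 31.3 and 119 CPM (median 50.9) in the 6 MLL libraries and at 187 and 289.8 CPM in Cbfb::MYH11 30 and 27 (log2 fold change -1.99, SE 0.34, adjusted p = 0.0024). Kit transcripts were present in all 8 libraries, and its groups did not overlap.

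**Figure D1:**
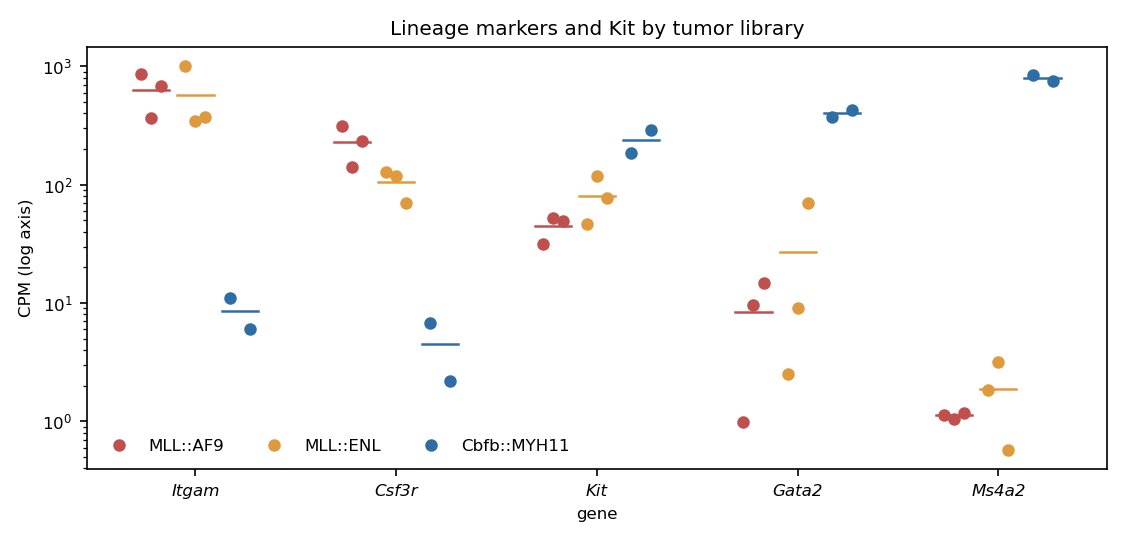
CPM on a log axis for Itgam, Csf3r, Kit, Gata2 and Ms4a2, with 1 point per library in the MLL::AF9, MLL::ENL and Cbfb::MYH11 groups and a line at each group mean. The 2 Cbfb::MYH11 libraries lie below every MLL library for Itgam and Csf3r and above every MLL library for Kit, Gata2 and Ms4a2.

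Genes of mast cells and basophils were lower in the MLL tumors, where many were close to absent. Of 17 tested genes of the mast cell and basophil list, 11 were lower and 2 higher in the MLL tumors, against a background of 12.4% lower and 13.2% higher, with a median log2 fold change of -4.73, or -4.03 with genes at 0 in a whole group held at their bound. The 11 lower genes include the selection antigen Kit and the stem and mast cell factor Gata2. List members Tpsb2 and Tpsab1, at 0 in every tumor library, and Mrgprb2, at most 0.232 CPM, were not tested. The count of lower genes was 10 without Cbfb::MYH11 30 and 9 without Cbfb::MYH11 27. Summed over the list, CPM was 3714 and 4546 in Cbfb::MYH11 30 and 27 and 276 to 879 in the MLL libraries. In bulk RNA, fewer cells of a type and less RNA per cell cannot be told apart.

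Fcer1a, the IgE-binding chain of the same receptor, had no count in any MLL library and 683 and 1007 CPM in Cbfb::MYH11 30 and 27, at least 2450-fold higher against a floor of 3 counts per library (adjusted p = 2.5e-05). Il1rl1, the receptor for interleukin-33 on mast cells, was between 0.135 and 3.06 CPM (median 0.572) in the 6 MLL libraries and at 926 and 952 CPM in Cbfb::MYH11 30 and 27 (log2 fold change -9.88, SE 0.89, adjusted p = 9.9e-05). Slc45a3, a transporter, was between 0.0494 and 7.72 CPM (median 0.275) in the 6 MLL libraries, with MLL::ENL L alone above 1 CPM, and at 122 and 111 CPM in Cbfb::MYH11 30 and 27 (log2 fold change -7.28, SE 1.03, adjusted p = 0.00098; no adjusted p from DESeq2). For these 3 genes and Ms4a2, no MLL library came near the Cbfb::MYH11 libraries. Il1rl1, Slc45a3 and Ms4a2 passed a naming rule that required no overlap, and Fcer1a one that required under 0.5 CPM in every MLL library. On the per-length scale of TPM (transcript share after correction for gene length), the levels in the Cbfb::MYH11 libraries were, from the highest, Fcer1a (1141 ± 197 TPM), Ms4a2 (568 ± 117 TPM), Il1rl1 (271 ± 15.7 TPM) and Slc45a3 (41 ± 5.26 TPM; mean ± SD, n = 2).

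The 250 bases before 1 transcription start of each of these genes are shown. The reason is that 8 of the 11 mast cell and basophil genes called lower held a GATA motif in a RefSeq promoter, a window of 300 bases around a start. The motif (AGATAA or TGATAA on either strand) occurs in 21.0% of 27025 genes with such a promoter. Among the graded, near-absent and abundant genes named by rule, 6 of 19 lower and 5 of 15 higher genes with a promoter held it. The motif TGTGGT was held by 5 of the same 11 mast cell and basophil genes, against 18.9% of genes. Among the genes named by rule, 7 of 19 lower and 7 of 15 higher held TGTGGT. Capitals mark GATA motifs (read on either strand), the RUNX motif TGTGGT, the ETS motif GGAAGT and the C/EBP motif TTGCNNAA, searched on both strands. A match is a description of letters and not a binding site. The windows, in build GRCm38.p6, are chr19:11623720-11623969, minus strand for Ms4a2, chr1:173227230-173227479, minus strand for Fcer1a, chr1:40429320-40429569, plus strand for Il1rl1 and chr1:131970359-131970608, plus strand for Slc45a3.
Ms4a2: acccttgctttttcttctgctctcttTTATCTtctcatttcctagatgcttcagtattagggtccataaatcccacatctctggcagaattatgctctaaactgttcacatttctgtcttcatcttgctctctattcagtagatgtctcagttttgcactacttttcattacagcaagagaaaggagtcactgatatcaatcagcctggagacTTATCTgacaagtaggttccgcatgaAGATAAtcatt
Fcer1a: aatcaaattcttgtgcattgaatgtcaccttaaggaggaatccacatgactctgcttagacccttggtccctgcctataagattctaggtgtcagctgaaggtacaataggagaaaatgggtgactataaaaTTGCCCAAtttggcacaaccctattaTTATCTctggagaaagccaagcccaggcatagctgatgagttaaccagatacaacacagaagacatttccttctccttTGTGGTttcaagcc
Il1rl1: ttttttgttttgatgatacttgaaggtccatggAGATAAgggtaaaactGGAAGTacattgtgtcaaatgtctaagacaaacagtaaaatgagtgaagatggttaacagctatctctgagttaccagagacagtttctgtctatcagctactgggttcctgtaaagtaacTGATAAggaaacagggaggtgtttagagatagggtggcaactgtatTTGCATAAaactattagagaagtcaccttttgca
Slc45a3: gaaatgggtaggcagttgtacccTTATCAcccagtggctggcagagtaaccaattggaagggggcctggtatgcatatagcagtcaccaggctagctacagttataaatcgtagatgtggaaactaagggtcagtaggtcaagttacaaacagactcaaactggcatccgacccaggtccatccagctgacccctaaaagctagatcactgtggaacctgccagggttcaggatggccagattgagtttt
Ms4a2 carries 3 GATA motifs, the nearest 11 to 6 bases before the start, and Il1rl1 carries 2. Fcer1a and Slc45a3 carry 1 each, and the Fcer1a window also holds TGTGGT at 14 to 9 bases before the start. Il1rl1 and Slc45a3 have 2 RefSeq starts each, and the start with the most motif matches is shown. The other Slc45a3 promoter held none of these motifs, and the other Il1rl1 promoter held 1 GATA motif and 1 TGTGGT.

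Further genes of mast cells and basophils had the same direction. Cma1, a chymase of connective tissue mast cells, was at 0 in 5 MLL libraries and at 0.424 CPM in MLL::AF9 2, against 69.9 and 146 CPM in Cbfb::MYH11 30 and 27 (adjusted p = 0.00022). Il4, a cytokine made by mast cells and basophils, was at most 0.0521 CPM in the MLL libraries and 12.2 and 11.7 CPM in Cbfb::MYH11 30 and 27 (adjusted p = 0.00092). Slc18a2, the transporter that loads amines such as histamine into vesicles, was between 0.991 and 1.56 CPM (median 1.46) in the 6 MLL libraries and at 326 and 206 CPM in Cbfb::MYH11 30 and 27 (log2 fold change -7.61, SE 0.25, adjusted p = 9.7e-07). Cd200r3, an activating receptor of mast cells and basophils, was between 0 and 1.78 CPM (median 0.102) and at 50.2 and 16.6 CPM in the same order (adjusted p = 0.0018). Mitf, a transcription factor of mast cells, was also lower in the MLL libraries (log2 fold change -2.63, SE 0.46, adjusted p = 0.0029), with an adjusted p of 0.054 without Cbfb::MYH11 27. No library of one side reached the other for any of these 5 genes, which was a condition of the rule that named Slc18a2.

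The list did not move as a whole. Cpa3, a mast cell carboxypeptidase, was at 225 and 330.0 CPM in Cbfb::MYH11 30 and 27 but reached 167 CPM in MLL::ENL L and was not called (adjusted p = 0.065). Hdc, which makes histamine, was between 2.52 and 252 CPM (median 62.9) in the 6 MLL libraries and 177 and 457 CPM in Cbfb::MYH11 30 and 27 (adjusted p = 0.34), with overlapping groups. The basophil proteases Mcpt8 and Prss34 were low on both sides, at most 8.66 CPM and 0.849 CPM in any tumor library. Mcpt4 was at 0 in the MLL libraries and at only 2.94 and 2.73 CPM in Cbfb::MYH11 30 and 27, at least 9-fold higher, and that call was lost without either Cbfb::MYH11 library (adjusted p = 0.061 at most). Fcer1g, the signalling chain that the IgE receptor shares with Fc gamma receptors, went the other way, between 176 and 582 CPM (median 247) in the 6 MLL libraries and 22.9 and 22.8 CPM in Cbfb::MYH11 30 and 27 (log2 fold change 3.85, SE 0.65, adjusted p = 0.0026), as did the growth factor gene Hgf (log2 fold change 2.68, SE 0.75, adjusted p = 0.027; adjusted p = 0.11 without Cbfb::MYH11 27).

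Eosinophil genes did not mark either side. Of 10 tested, 1 was higher and 1 lower (median log2 fold change 0.16, 0.0 at the bounds), under the shares of all genes in both directions. Ccr3, the eotaxin receptor of eosinophils and basophils, was between 0 and 0.991 CPM (median 0.14) in the 6 MLL libraries and 8.6 and 18 CPM in Cbfb::MYH11 30 and 27 (log2 fold change -5.51, SE 0.79, adjusted p = 0.0011). Prg2, the major basic protein, was between 1.86 and 27.7 CPM (median 9.21) in the 6 MLL libraries and at 0.412 and 0.116 CPM in Cbfb::MYH11 30 and 27, and was the gene called higher (adjusted p = 0.018; 0.088 by limma-voom; 0.079 without Cbfb::MYH11 30 and 0.16 without Cbfb::MYH11 27). DESeq2 gave Prg2 no adjusted p. The eosinophil peroxidase gene Epx stayed at or below 0.313 CPM in every tumor library.

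The GATA factors that work with TAL1 in red cell, megakaryocyte and mast cell precursors were lower in the MLL tumors. Of 10 members of that complex and its partners, 8 were lower and 1 higher (median -2.33), with 6 lower without Cbfb::MYH11 30 and 6 without Cbfb::MYH11 27. Gata1 was between 0 and 4.83 CPM (median 0.696) in the 6 MLL libraries and 192 and 225 CPM in Cbfb::MYH11 30 and 27 (log2 fold change -7.48, SE 1.04, adjusted p = 0.00089). Gfi1b, a repressor needed for red cell and platelet formation, was between 0.141 and 2.51 CPM (median 0.471) and 164 and 111 CPM in the same order (log2 fold change -7.55, SE 0.54, adjusted p = 3.2e-05). Tal1 (log2 fold change -6.69, SE 1.29, adjusted p = 0.005; no adjusted p from DESeq2) and the adaptor gene Ldb1 (log2 fold change -1.45, SE 0.22, adjusted p = 0.0014) were lower too. Lmo2, the bridging member of the complex, was between 92.7 and 462 CPM (median 370.4) in the 6 MLL libraries and 195 and 209 CPM in Cbfb::MYH11 30 and 27 and was not called (adjusted p = 0.32), and Lyl1, a TAL1 relative, was the member called higher (log2 fold change 0.99, SE 0.28, adjusted p = 0.03; 0.056 with libraries labelled female), a call lost when Cbfb::MYH11 30 (adjusted p = 0.24), MLL::ENL L (0.052) or MLL::ENL RL (0.054) was left out.

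Several early erythroid genes were lower in the MLL tumors, while globin genes were not called. Of 16 erythroid genes, 7 were lower and 0 higher (median -2.72), with 5 and 5 lower without Cbfb::MYH11 30 and 27 and 13 lower without MLL::AF9 42. Alternatives gave 4 lower by DESeq2 and 13 lower with libraries labelled female. Klf1, the erythroid Kruppel factor, was between 0.0707 and 2.79 CPM (median 1.04) in the 6 MLL libraries and 149.8 and 224 CPM in Cbfb::MYH11 30 and 27 (log2 fold change -7.24, SE 0.73, adjusted p = 0.00017). Car1, a carbonic anhydrase of red cell precursors, was between 0.209 and 4.55 CPM (median 3.03) and 719 and 1569 CPM in the same order (log2 fold change -8.95, SE 0.85, adjusted p = 0.00013). Epor, the erythropoietin receptor, was between 0 and 2.79 CPM (median 0.814) against 62.8 and 74.6 CPM (log2 fold change -5.88, SE 0.98, adjusted p = 0.0024). None of these overlapped between sides, which was a condition of a rule by which Car1 was named. By contrast Hbb-bs, an adult beta globin gene, was between 9.53 and 3252 CPM (median 491) in the 6 MLL libraries and 534 and 920.1 CPM in Cbfb::MYH11 30 and 27 (adjusted p = 0.85), with the lowest values in MLL::AF9 47 and 2 and the highest in MLL::ENL NO, and Slc4a1, the red cell anion exchanger, ran between 0.399 and 845 CPM (median 80.8) against 24.1 and 37 CPM (adjusted p = 0.42).

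Most heme synthesis genes were lower in the MLL tumors, and Alas1 was higher. Of 10, 7 were lower and 1 higher (median -1.42; 4 lower without Cbfb::MYH11 30 and 4 without Cbfb::MYH11 27). Alas1, the housekeeping first enzyme, was between 139 and 697 CPM (median 359.9) in the 6 MLL libraries and 17.4 and 14.9 CPM in Cbfb::MYH11 30 and 27 (log2 fold change 4.53, SE 0.63, adjusted p = 0.00089), while its erythroid counterpart Alas2 was between 0.299 and 118 CPM (median 17) and 59.6 and 300.1 CPM (adjusted p = 0.31). The later enzyme Cpox was between 14.5 and 50.2 CPM (median 25.5) in the 6 MLL libraries and 285 and 379.8 CPM in Cbfb::MYH11 30 and 27 (log2 fold change -3.58, SE 0.4, adjusted p = 0.00032), and Urod between 24.9 and 77.7 CPM (median 37.9) and 188 and 267 CPM (log2 fold change -2.41, SE 0.34, adjusted p = 0.001). Alas1 and these 2 later enzymes thus had separated groups in opposite directions.

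Of 15 megakaryocyte and platelet genes, 5 were lower and 1 higher (median -2.02), with 2 lower without Cbfb::MYH11 30 and 5 without Cbfb::MYH11 27. The shares were 33.3% lower and 6.7% higher, against 12.4% and 13.2% of all genes. Alternative fits gave 3 lower with the MLL libraries as 1 group. The platelet receptor genes Gp1ba (between 0.987 and 1.91 CPM (median 1.32) in the 6 MLL libraries, 98.1 and 62.9 CPM in Cbfb::MYH11 30 and 27, log2 fold change -5.91, SE 0.31, adjusted p = 1e-05) and Gp5 (at most 0.743 CPM in MLL libraries, 152 and 111 CPM in Cbfb::MYH11, adjusted p = 0.00012) were lower. Their partner genes Gp9 and Gp1bb were not called (adjusted p = 0.23 and 0.32), and Pf4, an abundant platelet chemokine, was at most 4.05 CPM in any tumor library. Fli1, an ETS factor of megakaryocytes and other blood cells, was higher (log2 fold change 1.58, SE 0.41, adjusted p = 0.02; adjusted p 0.088 without Cbfb::MYH11 30 and 0.18 without Cbfb::MYH11 27).

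On the MLL side, the transcription factors of granulocytes and monocytes stood well above the Cbfb::MYH11 level. Of 15 such genes, 10 were higher and 0 lower (median 3.39), and 7 and 7 were higher without Cbfb::MYH11 30 and 27. Cebpe, which drives the terminal steps of granulocyte maturation, was between 145 and 566 CPM (median 201) in the 6 MLL libraries and 1.85 and 0.581 CPM in Cbfb::MYH11 30 and 27 (log2 fold change 7.94, SE 0.98, adjusted p = 0.00049). Gfi1, a repressor of neutrophil precursors, was between 56.4 and 328 CPM (median 141) against 0.721 and 1.05 CPM (log2 fold change 7.5, SE 0.78, adjusted p = 0.00021). Cebpa, the factor that commits cells to the granulocyte and monocyte path, was between 54 and 166 CPM (median 132) against 7.78 and 13.6 CPM (log2 fold change 3.45, SE 0.59, adjusted p = 0.0026). All libraries of these 3 genes were separated, which was a condition of a rule by which Cebpe was named. Spi1, encoding PU.1, was between 356 and 562 CPM (median 474) in the 6 MLL libraries and remained at 75.4 and 90.9 CPM in Cbfb::MYH11 30 and 27 (log2 fold change 2.49, SE 0.33, adjusted p = 0.0007), and Irf8, a monocyte factor, was between 61.1 and 332 CPM (median 143) against 13.6 and 16 CPM (log2 fold change 3.39, SE 0.56, adjusted p = 0.0023). Cebpb (log2 fold change 4.66, SE 0.48, adjusted p = 0.00018) and Cebpd (log2 fold change 5.34, SE 0.57, adjusted p = 0.00023) were higher as well.

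Granule genes, which granulocyte precursors switch on in waves, were higher in the MLL tumors and reached very high levels. Of 12 genes of the primary (azurophil) granule stage, 11 were higher and 0 lower (median 5.7), and 8 and 7 were higher without Cbfb::MYH11 30 and 27. Elane, neutrophil elastase, was between 584 and 7357 CPM (median 3225) in the 6 MLL libraries and 19.1 and 27.8 CPM in Cbfb::MYH11 30 and 27 (log2 fold change 7.3, SE 1.31, adjusted p = 0.0034). Prtn3, proteinase-3, was between 483 and 5263 CPM (median 2256) against 35.6 and 48.8 CPM (log2 fold change 6.0, SE 1.06, adjusted p = 0.0032). Mpo, myeloperoxidase, kept 106 and 198 CPM in Cbfb::MYH11 30 and 27 and was between 411 and 6652 CPM (median 1278) in the 6 MLL libraries (log2 fold change 4.09, SE 1.26, adjusted p = 0.039; 0.06 with tumor libraries only), a call lost in 5 leave-one-out fits, those without either Cbfb::MYH11 library, either WT library or MLL::AF9 42 (adjusted p up to 0.2). Igsf6, an immunoglobulin family gene of myeloid cells, had the smaller spread, between 161 and 408 CPM (median 287) against 5.25 and 3.49 CPM (log2 fold change 6.09, SE 0.51, adjusted p = 6.8e-05). Fcnb, a ficolin of immature neutrophils, was between 39.5 and 564 CPM (median 257) against 2.16 and 0.872 CPM (log2 fold change 7.37, SE 1.44, adjusted p = 0.0052; 0.07 by limma-voom; adjusted p = 0.069 without Cbfb::MYH11 27). Calr, a chaperone of the endoplasmic reticulum, was not called, between 517 and 2029 CPM (median 1134) and 772 and 1061 CPM (adjusted p = 0.68).

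Genes of the later secondary and tertiary granule stage showed larger differences and a wider spread among the MLL tumors. Their list also holds genes whose products are not granule contents, such as S100a8, S100a9, Padi4 and Csf3r. Of 20, 16 were higher and 0 lower, with a median of 7.09, but 5 and 4 were called without Cbfb::MYH11 30 and 27, 11 by limma-voom and 19 by DESeq2. S100a9, a subunit of calprotectin, was at 45946, 3222 and 9283 CPM in MLL::AF9 2, 47 and 42, at 16966, 1513 and 960.3 CPM in MLL::ENL NO, RL and L, and at 41.5 and 13.9 CPM in Cbfb::MYH11 30 and 27. The lowest MLL library was still far above both Cbfb::MYH11 libraries, while the MLL libraries themselves spanned a wide range with MLL::AF9 2 and MLL::ENL NO on top (log2 fold change 8.66, SE 1.97, adjusted p = 0.011; adjusted p 0.063 without Cbfb::MYH11 30 and 0.11 without Cbfb::MYH11 27). Its partner S100a8 was between 1006 and 37027 CPM (median 6171) against 44.3 and 14 CPM (log2 fold change 8.59, SE 1.9, adjusted p = 0.0095; 0.056 without Cbfb::MYH11 30 and 0.1 without Cbfb::MYH11 27). Camp, the cathelicidin antimicrobial peptide, was between 590.0 and 25012 CPM (median 2783) against 24.7 and 9.59 CPM (log2 fold change 8.37, SE 1.81, adjusted p = 0.0086; 0.055 without Cbfb::MYH11 30 and 0.097 without Cbfb::MYH11 27). Ngp, neutrophilic granule protein, was between 721 and 31338 CPM (median 5043) against 43.6 and 21.9 CPM (log2 fold change 7.96, SE 1.74, adjusted p = 0.0091; 0.063 without Cbfb::MYH11 30 and 0.1 without Cbfb::MYH11 27). These 4 genes shared the order of libraries at the top, MLL::AF9 2 first and MLL::ENL NO second. The rule that named them required no overlap between the sides.

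Several genes of the secondary and tertiary granule list were less dependent on 1 library. Chil3, a chitinase-like protein of myeloid cells, was between 1669.5 and 13678 CPM (median 6065) in the 6 MLL libraries and 65.6 and 120.4 CPM in Cbfb::MYH11 30 and 27 (log2 fold change 6.14, SE 1.09, adjusted p = 0.0032). Pglyrp1, a bactericidal peptidoglycan binder, was between 212 and 1669 CPM (median 589.5) against 5 and 1.8 CPM (log2 fold change 7.81, SE 1.24, adjusted p = 0.0018). Padi4, the enzyme that citrullinates histones in neutrophils, was between 49.9 and 257 CPM (median 188) against 0.773 and 0.465 CPM (log2 fold change 7.93, SE 0.77, adjusted p = 0.00014). All 3 were called in every leave-one-out fit. Cd177, a neutrophil surface protein (log2 fold change 7.51, SE 1.35, adjusted p = 0.0034; 0.051 without Cbfb::MYH11 27), and Mmp9, gelatinase B (log2 fold change 7.8, SE 1.8, adjusted p = 0.012; 0.058 by limma-voom; 0.069 without Cbfb::MYH11 30 and 0.12 without Cbfb::MYH11 27), were higher too. Ltf, lactoferrin, was between 51.8 and 13322 CPM (median 1371) against 30.9 and 11.8 CPM (adjusted p = 0.042; 0.052 with the MLL libraries as 1 group and 0.065 with tumor libraries only, lost without either Cbfb::MYH11 library, either WT library or MLL::AF9 42, with an adjusted p of up to 0.25), and Ly6g and Retnlg, genes of mature neutrophils, were not called (adjusted p = 0.079 and 0.077).

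The promoter of Ngp is shown because it holds the C/EBP motif at 2 places. The 250 bases before its start lie at chr9:110419558-110419807, plus strand in RefSeq build GRCm38.p6, with capitals marking the C/EBP motif TTGCNNAA on either strand.
Ngp: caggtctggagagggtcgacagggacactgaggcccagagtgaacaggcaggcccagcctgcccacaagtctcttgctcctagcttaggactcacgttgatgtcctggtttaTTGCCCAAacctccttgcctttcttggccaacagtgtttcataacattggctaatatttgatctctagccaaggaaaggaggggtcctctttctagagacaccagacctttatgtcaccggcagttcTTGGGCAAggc
The motif occurs 138 to 131 and 11 to 4 bases before the start, and 12.2% of genes with a RefSeq promoter hold it somewhere in their 300-base window. Of the 16 secondary and tertiary granule genes called higher, 15 had a promoter, of which 5 held this motif, 5 a GATA motif and 7 the ETS motif GGAAGT (26.5% of genes). The C/EBP motif was also held by 5 of the 11 mast cell and basophil genes called lower.

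A cluster of stefin genes on chromosome 16, which encode cytosolic cysteine protease inhibitors of myeloid cells, was near zero in the Cbfb::MYH11 libraries. Near-zero levels there were a condition of the rule that named these genes. Stfa1 was between 7.43 and 4219 CPM (median 708) in the 6 MLL libraries and 0 and 0.0581 CPM in Cbfb::MYH11 30 and 27 (adjusted p = 0.0097; 0.24 by limma-voom; 0.079 without Cbfb::MYH11 30 and 0.09 without Cbfb::MYH11 27). Gm5483, a stefin-like gene, was between 28.1 and 3179 CPM (median 289) against 0.155 and 0.116 CPM (adjusted p = 0.0067; 0.13 by limma-voom; 0.06 without Cbfb::MYH11 30 and 0.078 without Cbfb::MYH11 27). BC100530, Stfa2l1, Stfa3 and Stfa2 were also called higher, and these calls too were lost without either Cbfb::MYH11 library and under limma-voom. DESeq2 gave no adjusted p for Stfa1, Gm5483 and BC100530. MLL::ENL NO was highest for all 6 genes. They are close relatives, and RSEM could have divided reads among them, so their single values are uncertain.

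**Figure D2:**
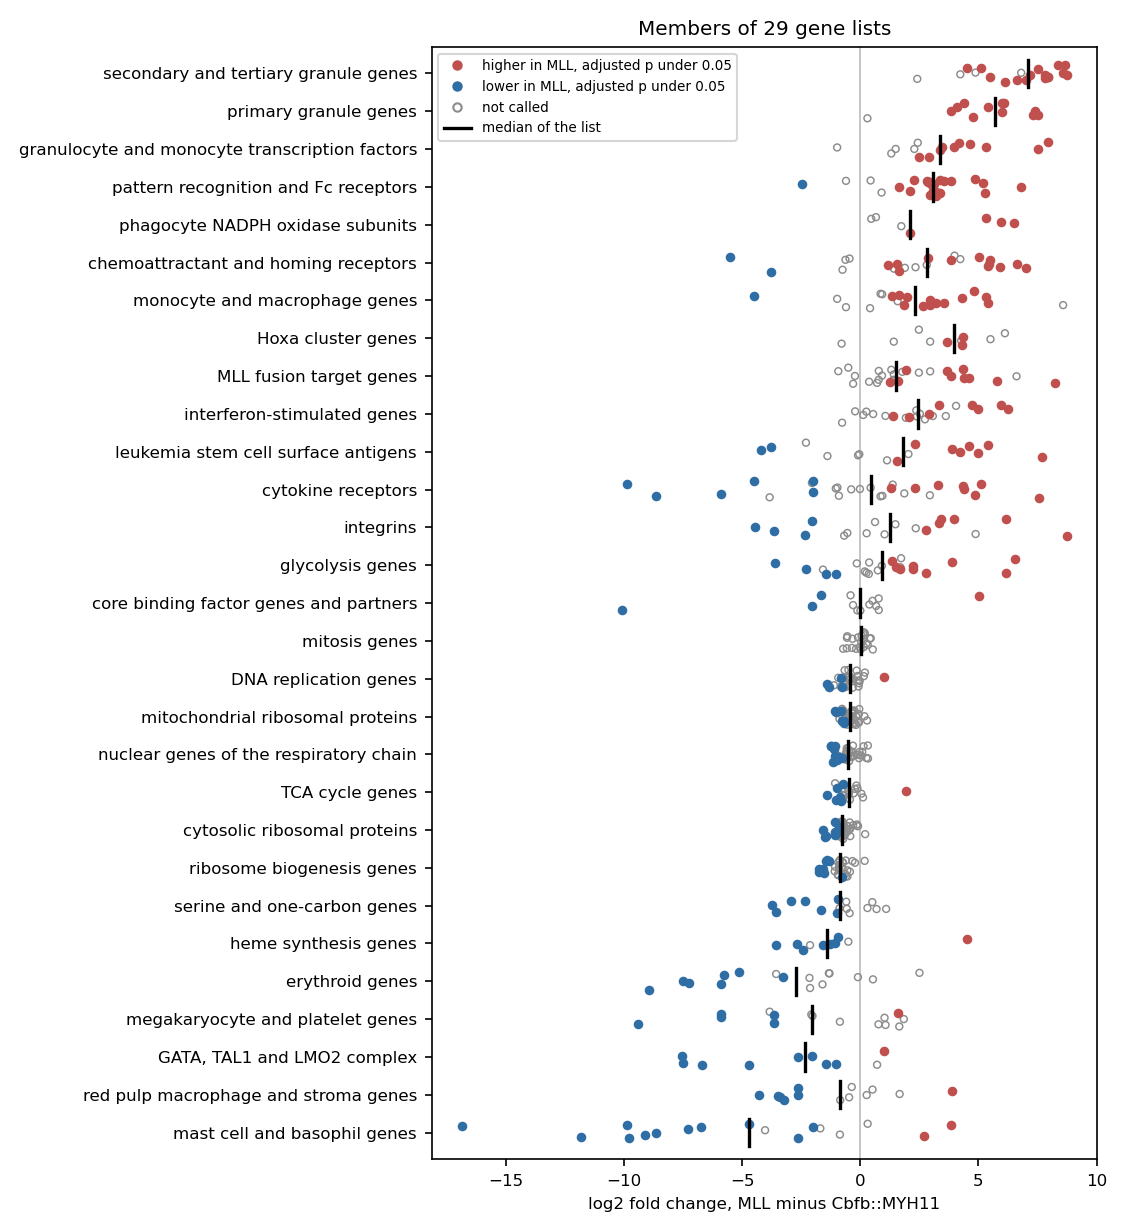
Log2 fold change, MLL minus Cbfb::MYH11, of each tested member of 29 gene lists (1 point per gene, red for called higher, blue for called lower, open grey for not called, black bar for the list median). The medians of the granule, transcription factor and sensor lists lie to the right and those of the mast cell, erythroid and GATA lists to the left of 0, and fitted values of genes near zero on one side depend on the prior count.

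Monocyte and macrophage genes were mostly higher in the MLL tumors. Of 22, 14 were higher and 1 lower (median 2.31, 1.92 at the bounds). There were 4 higher and 1 lower with Cbfb::MYH11 30 left out, and 4 higher and 1 lower with Cbfb::MYH11 27 left out. Lyz2, lysozyme M, was between 641 and 12267 CPM (median 1946) in the 6 MLL libraries and 118 and 93.2 CPM in Cbfb::MYH11 30 and 27 (log2 fold change 4.83, SE 1.23, adjusted p = 0.018; 0.11 without Cbfb::MYH11 30 and 0.15 without Cbfb::MYH11 27). Cx3cr1, the fractalkine receptor of monocytes, was between 7.76 and 50.3 CPM (median 35.9) against 0.979 and 0.291 CPM (log2 fold change 5.41, SE 0.81, adjusted p = 0.0013), and Fcgr3, a low-affinity IgG receptor, between 139.8 and 256 CPM (median 179) against 13.6 and 28.2 CPM (log2 fold change 3.19, SE 0.42, adjusted p = 0.0007). Csf1r, the receptor for macrophage colony-stimulating factor, was present on both sides, between 88.9 and 287 CPM (median 154) in the 6 MLL libraries and 85.4 and 94.6 CPM in Cbfb::MYH11 30 and 27, and was not called (adjusted p = 0.12). Ly6c2, read by the Gr1 antibody used for selection, was between 377 and 1523 CPM (median 755) against 37.8 and 44.6 CPM (log2 fold change 4.31, SE 0.64, adjusted p = 0.0013).

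Some tissue macrophage genes ran the other way. Mrc1, the mannose receptor CD206, was between 0.707 and 3.02 CPM (median 1.21) in the 6 MLL libraries and 19.1 and 42.5 CPM in Cbfb::MYH11 30 and 27 (log2 fold change -4.48, SE 0.45, adjusted p = 0.00018). Mrc1 was the 1 monocyte and macrophage gene called lower. Adgre1 (log2 fold change 1.97, SE 0.52, adjusted p = 0.022) and Cd68 (log2 fold change 1.87, SE 0.41, adjusted p = 0.0096) of that list were higher. The red pulp macrophage gene Vcam1 was not called (log2 fold change -0.85, SE 0.58, adjusted p = 0.31). Of 13 tested genes of spleen red pulp macrophages and stroma, 6 were lower and 1 higher (median -0.85). There were 0 higher and 3 lower with Cbfb::MYH11 30 left out, and 0 higher and 3 lower with Cbfb::MYH11 27 left out. C1qc, a complement subunit made by tissue macrophages, was between 0.928 and 10.5 CPM (median 5.9) against 37.2 and 69.3 CPM (log2 fold change -3.38, SE 0.58, adjusted p = 0.0028), and Axl, a receptor for apoptotic cells, between 1.76 and 10.7 CPM (median 4.58) against 42.2 and 61.8 CPM (log2 fold change -3.23, SE 0.61, adjusted p = 0.0045). Spic, the defining factor of red pulp macrophages, was low throughout, between 0.226 and 2.23 CPM (median 1.02) in the 6 MLL libraries and 6.39 and 8.08 CPM in Cbfb::MYH11 30 and 27 (adjusted p = 0.014; 0.052 with libraries labelled female, lost without either Cbfb::MYH11 library with an adjusted p of up to 0.11). The stromal genes Col1a1, Col1a2 and Dcn were at most 4.6 CPM in any tumor library, and Pecam1, an adhesion protein of endothelium and of leukocytes, was the gene called higher (log2 fold change 3.88, SE 0.79, adjusted p = 0.0063; 0.061 without Cbfb::MYH11 30 and 0.071 without Cbfb::MYH11 27).

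The microbial sensors and Fc receptors of phagocytes were mostly higher in the MLL tumors. Of 25, 21 were higher and 1 lower (median 3.09). There were 13 higher and 0 lower with Cbfb::MYH11 30 left out, and 9 higher and 0 lower with Cbfb::MYH11 27 left out, and 11 higher by limma-voom. Trem3, an activating receptor of neutrophils and macrophages, was between 84.1 and 420.4 CPM (median 198) in the 6 MLL libraries and 2.27 and 1.92 CPM in Cbfb::MYH11 30 and 27 (log2 fold change 6.8, SE 0.82, adjusted p = 0.00045). Its adaptor gene Tyrobp, encoding DAP12, was between 407 and 1036 CPM (median 615) against 24.5 and 21.4 CPM (log2 fold change 4.86, SE 0.56, adjusted p = 0.00036). Fcgr2b, the inhibitory IgG receptor, was between 85.6 and 174 CPM (median 118) against 34.4 and 24.3 CPM (log2 fold change 2.09, SE 0.32, adjusted p = 0.0014). Among Toll-like receptors, Tlr1 (log2 fold change 2.96, SE 0.45, adjusted p = 0.0014) and Tlr6 (log2 fold change 3.12, SE 0.46, adjusted p = 0.0013), which pair with Tlr2 on bacterial lipopeptides, were called in each leave-one-out fit. Clec4n, dectin-2, was the member called lower, between 0.464 and 6.02 CPM (median 2.12) against 17.4 and 9.59 CPM (log2 fold change -2.49, SE 0.66, adjusted p = 0.021; 0.073 with the MLL libraries as 1 group; 0.17 without Cbfb::MYH11 30 and 0.065 without Cbfb::MYH11 27), and the shared adaptor Myd88 was not called (adjusted p = 0.27).

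The phagocyte NADPH oxidase, which makes the oxidative burst, was higher in 4 of 7 subunit genes and lower in 0 (median 2.11), with 2 higher without Cbfb::MYH11 30 and 2 without Cbfb::MYH11 27. Its organizer Ncf1 was between 494 and 1641 CPM (median 948) in the 6 MLL libraries and 11.6 and 9.65 CPM in Cbfb::MYH11 30 and 27 (log2 fold change 6.5, SE 0.64, adjusted p = 0.00015), and Ncf4, another cytosolic subunit, between 242 and 654 CPM (median 268) against 7.93 and 4.01 CPM (log2 fold change 5.97, SE 0.7, adjusted p = 0.00037). The membrane subunit Cybb was between 155 and 1469 CPM (median 649) against 19.8 and 13.9 CPM (log2 fold change 5.32, SE 1.08, adjusted p = 0.0063; 0.0502 without Cbfb::MYH11 30 and 0.08 without Cbfb::MYH11 27), whereas its partner Cyba kept 262 and 434 CPM in Cbfb::MYH11 30 and 27 and was not called (adjusted p = 0.076). The GTPases Rac1 and Rac2 were not called either (adjusted p = 0.18 and 0.2).

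Receptors for chemoattractants and homing were higher in 12 of 23 genes and lower in 2 (median 2.81, 2.34 at the bounds). There were 6 higher and 1 lower with Cbfb::MYH11 30 left out, and 5 higher and 1 lower with Cbfb::MYH11 27 left out. Cxcr4, which holds cells in bone marrow, was between 194 and 447 CPM (median 295) in the 6 MLL libraries and 21.1 and 64.3 CPM in Cbfb::MYH11 30 and 27 (log2 fold change 2.85, SE 0.54, adjusted p = 0.0046). Ltb4r1, a leukotriene receptor, was between 102 and 687 CPM (median 214) against 3.14 and 6.51 CPM (log2 fold change 5.91, SE 0.94, adjusted p = 0.0018). Both genes had separated groups. The complement receptor genes split, with C5ar1 higher (log2 fold change 6.65, SE 1.22, adjusted p = 0.0038; 0.079 by limma-voom; 0.051 without Cbfb::MYH11 27) and C3ar1 lower (between 0 and 0.939 CPM (median 0.243) against 3.04 and 6.68 CPM; adjusted p = 0.04; 0.056 with tumor libraries only), the latter lost without either Cbfb::MYH11 library, either WT library, MLL::AF9 2 or MLL::AF9 42 (adjusted p up to 0.26).

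Integrins, the adhesion receptors that pair an alpha with a beta chain, were called in both directions. Of 18, 6 were higher and 4 lower (median 1.26, 0.83 at the bounds). There were 3 higher and 3 lower with Cbfb::MYH11 30 left out, and 3 higher and 3 lower with Cbfb::MYH11 27 left out. Elsewhere there were 3 higher by limma-voom and 2 lower with the MLL libraries as 1 group. The beta-2 partner chain Itgal was between 177 and 333 CPM (median 240.5) in the 6 MLL libraries and 27.1 and 20.9 CPM in Cbfb::MYH11 30 and 27 (log2 fold change 3.41, SE 0.38, adjusted p = 0.00029), beside the selection antigens Itgam and Itgb2. Itgb1, the beta-1 chain, was lower, between 139 and 194 CPM (median 158) against 647 and 699 CPM (log2 fold change -2.05, SE 0.22, adjusted p = 0.00022), as were Itga9 (log2 fold change -4.46, SE 0.67, adjusted p = 0.0014) and Itgb7, a chain of gut-homing and mast cell integrins (between 26.4 and 278 CPM (median 111) against 289.8 and 733 CPM; log2 fold change -2.33, SE 0.55, adjusted p = 0.013; 0.053 with the MLL libraries as 1 group; 0.22 without Cbfb::MYH11 27). Itga4, which pairs with both beta-1 and beta-7 chains, was not called (adjusted p = 0.21).

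Genes that MLL fusions are known to bind were higher in part. Of 10 Hoxa genes tested, 3 were higher and 0 lower (median 3.98, 2.72 at the bounds), with 1 higher without Cbfb::MYH11 30 and 1 without Cbfb::MYH11 27. Other settings gave 7 higher by DESeq2, 5 higher with no low-count filter and 5 higher with libraries labelled female. Hoxa5, a homeobox gene of the cluster, was between 4.44 and 76.6 CPM (median 24.2) in the 6 MLL libraries and 1.13 and 2.21 CPM in Cbfb::MYH11 30 and 27 (log2 fold change 3.68, SE 0.65, adjusted p = 0.003). Hoxa9, the best known of these targets, was at 18.5, 214 and 46.8 CPM in MLL::AF9 2, 47 and 42, at 149, 191 and 173 CPM in MLL::ENL NO, RL and L, and at 3.35 and 9.07 CPM in Cbfb::MYH11 30 and 27 (log2 fold change 4.35, SE 0.99, adjusted p = 0.011; 0.091 without Cbfb::MYH11 30 and 0.057 without Cbfb::MYH11 27). Its lowest MLL library was MLL::AF9 2, still above both Cbfb::MYH11 libraries. Hoxa7 and Hoxa10 overlapped between the sides, between 9.97 and 62.6 CPM (median 51.4) against 5.2 and 23.8 CPM and between 3.82 and 91.7 CPM (median 58.5) against 3.66 and 14.3 CPM, and were not called (adjusted p = 0.14 and 0.11).

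Of 26 MLL fusion target genes, Hoxa genes included, 10 were higher and 0 lower (median 1.51, 1.41 at the bounds), with 6 and 4 higher without Cbfb::MYH11 30 and 27. Mef2c, a transcription factor of leukemic progenitors, was between 53.9 and 198 CPM (median 120.1) in the 6 MLL libraries and 3.35 and 0.814 CPM in Cbfb::MYH11 30 and 27 (log2 fold change 5.79, SE 0.76, adjusted p = 0.0007). Meis1, the HOX cofactor, was between 7.92 and 96.6 CPM (median 49.7) against 6.34 and 0.814 CPM, with MLL::AF9 2 close to Cbfb::MYH11 30 (log2 fold change 3.85, SE 1.07, adjusted p = 0.026; 0.09 by limma-voom; 0.17 without Cbfb::MYH11 27). Lgals1, galectin-1, was between 288 and 1042 CPM (median 364) against 19.2 and 17 CPM (log2 fold change 4.62, SE 0.56, adjusted p = 0.00045). The kinase gene Cdk6 (between 56.8 and 939 CPM (median 536) against 374 and 221 CPM), Myb (between 42.2 and 704 CPM (median 305) against 139.8 and 110.1 CPM) and Myc (between 20.3 and 133 CPM (median 86) against 154 and 151 CPM) were not called (adjusted p = 0.49, 0.17 and 0.24), and MLL::AF9 2 was the lowest library for all 3. Mecom was read at 55.3 CPM in MLL::AF9 42 and at no more than 0.99 CPM elsewhere among the tumors.

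Outside the lists, Penk, which encodes the opioid precursor proenkephalin, was at 28.9, 165 and 170.2 CPM in MLL::AF9 2, 47 and 42, at 529.7, 305 and 145 CPM in MLL::ENL NO, RL and L, and at 0.0515 and 0.116 CPM in Cbfb::MYH11 30 and 27 (adjusted p = 0.00033). Olfml2b, an extracellular matrix gene, was between 45 and 420.5 CPM (median 92.6) against 0.258 and 0.407 CPM (adjusted p = 0.00052). Both genes were present in all 6 MLL libraries and called in each leave-one-out fit. Near-zero levels in both Cbfb::MYH11 libraries were a condition of the rule that named them.

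Of 21 stem and progenitor genes, 7 were lower (33.3%) and 3 higher (median 0.89, 0.0 at the bounds), and the higher share of 14.3% was close to the 13.2% of all genes. There were 3 higher and 5 lower with Cbfb::MYH11 30 left out, and 0 higher and 5 lower with Cbfb::MYH11 27 left out. Alternatives gave 0 higher by limma-voom and 5 higher with no low-count filter. Msi2, an RNA-binding protein of stem cells, was lower in the MLL tumors, between 5.11 and 18.6 CPM (median 9.23) in the 6 MLL libraries and 73.7 and 72.2 CPM in Cbfb::MYH11 30 and 27 (log2 fold change -2.85, SE 0.28, adjusted p = 0.00015). Hlf, a transcription factor of stem cells, was between 0.247 and 5.55 CPM (median 1.18) against 56.7 and 22.8 CPM (log2 fold change -4.59, SE 0.8, adjusted p = 0.003). Prom1, encoding CD133, was higher, between 8.76 and 69.9 CPM (median 40.4) against 1.49 and 0.988 CPM (log2 fold change 4.9, SE 0.99, adjusted p = 0.0063; 0.1 by limma-voom; 0.079 without Cbfb::MYH11 27), and so was Flt3, a receptor of early progenitors, between 1.86 and 103 CPM (median 32) against 2.32 and 1.22 CPM (log2 fold change 4.38, SE 1.19, adjusted p = 0.024; 0.12 by limma-voom; 0.11 without Cbfb::MYH11 30 and 0.19 without Cbfb::MYH11 27), although MLL::ENL NO lay between the Cbfb::MYH11 libraries. Cd34 was between 3.53 and 326 CPM (median 45.8) in the MLL libraries and 5.87 and 9.94 CPM in Cbfb::MYH11 30 and 27 and was not called (adjusted p = 0.16).

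Of 13 core binding factor genes and partners, 3 were lower and 1 higher (median 0.00), 30.8% in either direction against 25.6% of all genes. Reads were not separated between native and fusion transcripts. Myh11, at most 0.349 CPM in any tumor library, was not tested. Cbfb was between 99 and 167 CPM (median 149) in the 6 MLL libraries and 150.4 and 164 CPM in Cbfb::MYH11 30 and 27 (adjusted p = 0.74). Runx1, its partner, was lower in the MLL tumors, between 53 and 82.7 CPM (median 63.5) against 193 and 227 CPM (log2 fold change -1.66, SE 0.23, adjusted p = 0.00095). Runx1t1, the ETO corepressor, was at most 0.186 CPM in the MLL libraries and 27.6 and 13 CPM in Cbfb::MYH11 30 and 27 (adjusted p = 0.0005). Chd7, a chromatin remodeler that binds CBFB::MYH11 and RUNX1, was the member called higher, between 63.1 and 135 CPM (median 104) against 4.94 and 1.22 CPM (log2 fold change 5.02, SE 0.73, adjusted p = 0.0011). Groups of Runx1, Runx1t1 and Chd7 were separated in every library.

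Of 10 tested genes on a list linked to CBFB::MYH11, 4 were lower and 1 higher, and 4 and 4 were lower without Cbfb::MYH11 30 and 27. Il1rl1, Gata2, Runx1 and Kit, whose values stand above, were the lower ones. Csf2ra, the ligand-binding chain of the GM-CSF receptor, was the higher one, between 259.8 and 560.0 CPM (median 336) in the 6 MLL libraries and 13.4 and 11.2 CPM in Cbfb::MYH11 30 and 27 (log2 fold change 4.85, SE 0.31, adjusted p = 2.1e-05). Among 16 fusion partner and DOT1L complex genes, 5 were lower (31.2%) and 1 higher (6.2%), against 12.4% and 13.2% of all genes. There were 0 higher and 4 lower with Cbfb::MYH11 30 left out, and 0 higher and 3 lower with Cbfb::MYH11 27 left out. Psip1, encoding the LEDGF tether of MLL, was between 39.9 and 67.9 CPM (median 50.9) against 148 and 118 CPM (log2 fold change -1.36, SE 0.2, adjusted p = 0.0011), and Mllt3, the mouse AF9 gene, between 1.2 and 12.6 CPM (median 3.14) against 23.4 and 43.3 CPM (log2 fold change -3.03, SE 0.68, adjusted p = 0.01; 0.11 without Cbfb::MYH11 27). Kmt2a, Dot1l and Mllt1, the mouse ENL gene, were not called (adjusted p = 0.37, 0.88 and 0.89). For Kmt2a, Mllt3 and Mllt1 too, reads were not separated between native and fusion transcripts. Aff1, a subunit of the elongation complex, was the member called higher (adjusted p = 0.045; 0.052 with no low-count filter and 0.059 with libraries labelled female), and 7 of 10 leave-one-out fits lost that call (adjusted p up to 0.32).

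Several abundant Cbfb::MYH11 transcripts were nearly absent from the MLL libraries, which was a condition of the rule that named them. Podxl, podocalyxin, a sialomucin of stem cells and podocytes, was between 0 and 0.371 CPM (median 0.153) in the 6 MLL libraries and 662 and 723 CPM in Cbfb::MYH11 30 and 27 (adjusted p = 2.3e-05). Wnt2, a secreted Wnt ligand, had no count in any MLL library and 109 and 151 CPM in Cbfb::MYH11 30 and 27, at least 391-fold higher (adjusted p = 0.00014). Smo, the Hedgehog signal transducer, was at most 0.495 CPM in the MLL libraries and 98 and 161 CPM in Cbfb::MYH11 30 and 27 (adjusted p = 3.2e-05). Bex4 (378 and 469.6 CPM; adjusted p = 2.1e-05), the synaptic scaffold gene Shank3 (278 and 107 CPM; adjusted p = 1.4e-05) and Epdr1 (81.6 and 130.3 CPM; adjusted p = 4.7e-05) had the same pattern, with no MLL library above 0.5 CPM. All 6 were called with each library left out in turn.

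Other genes were far lower in the MLL tumors without being below 0.5 CPM in all of them. Mmp14, a membrane-bound matrix metalloproteinase, was between 0 and 4.64 CPM (median 0.881) in the 6 MLL libraries and 199.8 and 183 CPM in Cbfb::MYH11 30 and 27 (log2 fold change -8.21, SE 0.64, adjusted p = 4.7e-05). Sept8, a septin, was between 0.898 and 4.64 CPM (median 2.18) against 544 and 536 CPM (log2 fold change -7.84, SE 0.37, adjusted p = 8.2e-06). Cited4, a CBP/p300-binding coactivator, was between 0.249 and 3.06 CPM (median 1.53) against 198 and 302 CPM (log2 fold change -7.41, SE 0.63, adjusted p = 6.9e-05). Gnb4, a G protein beta subunit, was between 0 and 6.15 CPM (median 0.427) against 199 and 199.6 CPM (log2 fold change -7.85, SE 0.91, adjusted p = 0.00036), with MLL::AF9 2 above the other MLL libraries. Fth1, the ferritin heavy chain, was between 346 and 615 CPM (median 531) against 1681 and 2745 CPM (log2 fold change -2.14, SE 0.32, adjusted p = 0.0013). No MLL library of these 5 genes reached the lower Cbfb::MYH11 library, which was a condition of the rules that named them and not a result.

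Cytokine receptors were called in both directions. Of 27, 8 were higher and 6 lower (median 0.44). There were 6 higher and 6 lower with Cbfb::MYH11 30 left out, and 4 higher and 5 lower with Cbfb::MYH11 27 left out. Csf2rb2, a mouse beta chain for interleukin-3, was lower, between 20.2 and 105 CPM (median 40.8) in the 6 MLL libraries and 151 and 199 CPM in Cbfb::MYH11 30 and 27 (log2 fold change -1.98, SE 0.35, adjusted p = 0.0031; 0.067 with the MLL libraries as 1 group), while Csf2rb, the beta chain used by GM-CSF, was not called (log2 fold change -1.04, SE 0.36, adjusted p = 0.063). Csf2rb and Csf2rb2 are near-identical neighbours, so reads could have been divided between them. Ifngr1, the interferon-gamma receptor, was between 133 and 461 CPM (median 323) against 16.2 and 13.7 CPM (log2 fold change 4.35, SE 0.49, adjusted p = 0.00033), and Il6ra, the interleukin-6 receptor, between 53.2 and 132 CPM (median 63.4) against 8.5 and 6.1 CPM (log2 fold change 3.29, SE 0.38, adjusted p = 0.00037). Fgfr1, a fibroblast growth factor receptor, was between 0.135 and 0.678 CPM (median 0.327) against 107 and 195 CPM (log2 fold change -8.65, SE 0.5, adjusted p = 1.4e-05). Il9r, the interleukin-9 receptor of mast cells and T cells, was also lower (between 0.417 and 45.3 CPM (median 4.94) against 158 and 192 CPM; log2 fold change -4.48, SE 1.04, adjusted p = 0.012; 0.066 without Cbfb::MYH11 27).

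Surface antigens used to find leukemia stem cells in human AML were higher in 8 of 16 genes and lower in 2 (median 1.8). There were 4 higher and 2 lower with Cbfb::MYH11 30 left out, and 3 higher and 1 lower with Cbfb::MYH11 27 left out. Cd33, a sialic acid-binding receptor and antibody target in AML, was between 144 and 689 CPM (median 223) in the 6 MLL libraries and 1.44 and 1.22 CPM in Cbfb::MYH11 30 and 27 (log2 fold change 7.68, SE 0.69, adjusted p = 9.7e-05). Clec12a, a myeloid lectin, was between 296 and 900.1 CPM (median 481) against 12.7 and 12 CPM (log2 fold change 5.41, SE 0.46, adjusted p = 7.2e-05), and Cd53, a leukocyte tetraspanin, between 207 and 373 CPM (median 295) against 14.9 and 15.9 CPM (log2 fold change 4.24, SE 0.44, adjusted p = 0.00022). Havcr2, encoding TIM-3, was lower (log2 fold change -4.19, SE 0.83, adjusted p = 0.0055; 0.068 with the MLL libraries as 1 group; 0.11 without Cbfb::MYH11 27), and Cd47 was not called, between 377 and 619.7 CPM (median 479) against 441 and 586 CPM (adjusted p = 0.83).

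Dpp4, the surface peptidase CD26, was lower in the MLL tumors. It was at 34.2, 34.3 and 29.1 CPM in MLL::AF9 2, 47 and 42, at 4.46, 3.52 and 5.42 CPM in MLL::ENL NO, RL and L, and at 116 and 214 CPM in Cbfb::MYH11 30 and 27. The 3 groups did not overlap. The log2 fold change of MLL minus Cbfb::MYH11 was -3.77 (SE 0.27, adjusted p = 3.2e-05), and that of MLL::ENL minus MLL::AF9 was -2.86 (SE 0.32, adjusted p = 0.037). The call between the MLL groups was lost by limma-voom (adjusted p = 0.072), with libraries labelled female (0.067), and without MLL::AF9 2 (0.065), MLL::AF9 42 (0.072) or any 1 of the MLL::ENL libraries (0.10 to 0.35).

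Interferon-stimulated genes were higher in 8 of 22 members and lower in 0 (median 2.46), with 6 higher without Cbfb::MYH11 30 and 2 without Cbfb::MYH11 27. The higher share of the list was 36.4%, against 13.2% of all genes. Alternative fits gave 13 higher by DESeq2 and 4 higher by limma-voom. Cxcl10, an interferon-induced chemokine, was between 1.9 and 17.6 CPM (median 3.75) in the 6 MLL libraries and 0.103 and 0.0581 CPM in Cbfb::MYH11 30 and 27 (log2 fold change 5.95, SE 1.0, adjusted p = 0.0024). Oas2, an antiviral synthetase, was between 8.49 and 78.2 CPM (median 12.8) against 0.515 and 0 CPM (adjusted p = 0.0089; 0.066 by limma-voom; 0.067 without Cbfb::MYH11 27). Isg15 and Ifit3 were not called (adjusted p = 0.38 and 0.12), and MLL::AF9 2 held the highest value of Oas2, Isg15 and Ifit3.

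Antigen presentation and lymphocyte genes varied widely among the MLL tumors. Summed CPM of the T and NK cell list was 9.33 to 490.0 in the MLL libraries, highest in MLL::AF9 2, and 4.47 and 12.9 in the Cbfb::MYH11 libraries. Of 14 dendritic cell and MHC class II genes, 3 were higher and 0 lower (median 1.92), with 1 and 1 higher without Cbfb::MYH11 30 and 27. The higher share was 21.4%, against 13.2% of all genes. Elsewhere there were 6 higher by DESeq2. Cd74, the invariant chain, was at 3828 CPM in MLL::AF9 2 and down to 37.5 CPM in MLL::ENL L, against 161 and 58.8 CPM in Cbfb::MYH11 30 and 27 (adjusted p = 0.15). H2-DMb1, a peptide editor, was called in each leave-one-out fit, between 40.2 and 109 CPM (median 59.6) against 8.4 and 6.74 CPM (log2 fold change 3.12, SE 0.42, adjusted p = 0.00074). Of 12 B cell genes, 2 were higher (16.7%, near the 13.2% of all genes, median 3.49), and the count was 1 with Cbfb::MYH11 30 left out, 0 with Cbfb::MYH11 27 left out and 8 with MLL::AF9 47 left out. DESeq2 and the fit with no low-count filter each called 8 of them higher. None of 16 T and NK cell genes was called by edgeR (median 2.91), 4 were higher at an unadjusted p under 0.05, DESeq2 called 8, the fit with no filter 4 and limma-voom 0, and 5 were higher without MLL::AF9 47.

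Glycolysis genes were called in both directions, with isoforms of the same step among both. Of 23, 9 were higher and 4 lower in the MLL tumors (median 0.91). There were 3 higher and 4 lower with Cbfb::MYH11 30 left out, and 5 higher and 3 lower with Cbfb::MYH11 27 left out. Among hexokinases, which trap glucose, Hk3 was between 444 and 762 CPM (median 603) in the 6 MLL libraries and 9.06 and 7.09 CPM in Cbfb::MYH11 30 and 27 (log2 fold change 6.18, SE 0.41, adjusted p = 2.3e-05) and Hk2 between 45.1 and 89.8 CPM (median 54) against 9.89 and 16 CPM (log2 fold change 2.24, SE 0.45, adjusted p = 0.0061; 0.066 without Cbfb::MYH11 30), whereas Hk1 was lower, between 132 and 181 CPM (median 161) against 720.3 and 842 CPM (log2 fold change -2.29, SE 0.24, adjusted p = 0.00022). Per length, of these 2 hexokinases the higher was Hk3 in the MLL libraries (234 ± 97.7 TPM, mean ± SD, n = 6, against 44.7 ± 14.1 TPM for Hk1) and Hk1 in the Cbfb::MYH11 libraries (281 ± 10.4 TPM, n = 2, against 3.06 ± 0.431 TPM for Hk3). The phosphofructokinase genes Pfkm (log2 fold change -3.63, SE 0.49, adjusted p = 0.00079) and Pfkp (log2 fold change -1.44, SE 0.2, adjusted p = 0.00087) were lower and Pfkl was not called (adjusted p = 0.29). The bifunctional regulators Pfkfb3 (log2 fold change 2.23, SE 0.42, adjusted p = 0.0043; 0.051 without Cbfb::MYH11 27) and Pfkfb4 (log2 fold change 3.88, SE 0.78, adjusted p = 0.0059; 0.06 without Cbfb::MYH11 30) were higher. Lactate dehydrogenase Ldha was lower (between 585 and 845 CPM (median 721) against 1297 and 1605 CPM; log2 fold change -1.03, SE 0.23, adjusted p = 0.0095; 0.099 with libraries labelled female; 0.13 without Cbfb::MYH11 27). Slc16a3, the lactate exporter MCT4, was higher, between 102 and 279.5 CPM (median 153) against 38.1 and 10.5 CPM (log2 fold change 2.78, SE 0.56, adjusted p = 0.0061).

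Some genes of the TCA cycle and the respiratory chain were lower in the MLL tumors, and transcripts of the mitochondrial genome were not called. The lower share was 33.3% of TCA cycle genes and 23.7% of nuclear respiratory chain genes, against 12.4% of all genes. Of 21 TCA cycle genes, 7 were lower and 1 higher (median -0.5). There were 1 higher and 7 lower with Cbfb::MYH11 30 left out, and 1 higher and 1 lower with Cbfb::MYH11 27 left out. Other settings gave 2 lower with libraries labelled female. Idh1, the cytosolic isocitrate dehydrogenase, was higher, between 49.1 and 80.3 CPM (median 67) in the 6 MLL libraries and 16.9 and 16.8 CPM in Cbfb::MYH11 30 and 27 (log2 fold change 1.94, SE 0.27, adjusted p = 0.00089). Of 38 nuclear respiratory chain genes, 9 were lower and 0 higher (median -0.52), with 8 lower without Cbfb::MYH11 30 and 0 without Cbfb::MYH11 27. Alternatives gave 4 lower with libraries labelled female. Uqcrc2, a complex III core protein, was between 110.4 and 131 CPM (median 116) against 223 and 309 CPM (log2 fold change -1.17, SE 0.2, adjusted p = 0.0028; 0.062 without Cbfb::MYH11 27). No transcript of the 13 tested from the mitochondrial genome was called by edgeR, DESeq2 or limma-voom, and 0 had an unadjusted p under 0.05. Of 38 mitochondrial ribosomal protein genes, 16 were lower and 0 higher with no overlap between the sides, against 20.4% and 19.5% of all genes. At an unadjusted edgeR p under 0.05, 12 were lower, and fewer were called. Mitochondrial ribosomal protein genes were lower in 6 of 38 (15.8%, near the 12.4% of all genes, median -0.42), with counts of 2, 0 and 2 when Cbfb::MYH11 30, Cbfb::MYH11 27 or MLL::AF9 42 was left out. Alternative fits gave 11 lower by DESeq2, 2 lower with no low-count filter and 0 lower with libraries labelled female.

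The 3 genes that carry electrons from fat oxidation to the respiratory chain, Etfa, Etfb and Etfdh, were not called (adjusted p = 0.27, 0.95 and 0.24). Etfa was between 61.2 and 104 CPM (median 91.6) in the 6 MLL libraries and 103 and 127 CPM in Cbfb::MYH11 30 and 27, and Etfdh between 20.5 and 32.8 CPM (median 26.4) against 36.4 and 35.1 CPM. Of the 24 genes of this flavoprotein and beta-oxidation list, 8 were lower and 2 higher with no overlap between the sides (20.4% and 19.5% of all genes). Called were 2 lower and 1 higher (median -0.34), under the shares of all genes. There were 1 higher and 1 lower with Cbfb::MYH11 30 left out, and 0 higher and 1 lower with Cbfb::MYH11 27 left out. DESeq2 gave 6 lower. Decr1, which removes double bonds from unsaturated fatty acids, was lower, between 8.77 and 24 CPM (median 17.5) against 240.2 and 329 CPM (log2 fold change -4.09, SE 0.29, adjusted p = 3.2e-05). Serine and one-carbon genes were lower in 7 of 15 and higher in 0 (median -0.88), with 6 and 4 lower without Cbfb::MYH11 30 and 27. Mthfd1, a folate enzyme of the cytosol, was between 19.5 and 78.2 CPM (median 53.1) against 335 and 415 CPM (log2 fold change -2.93, SE 0.46, adjusted p = 0.0017), and Phgdh, the first enzyme of serine synthesis, between 2.69 and 115 CPM (median 17.6) against 301 and 332 CPM (log2 fold change -3.58, SE 0.63, adjusted p = 0.0032).

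**Figure D3:**
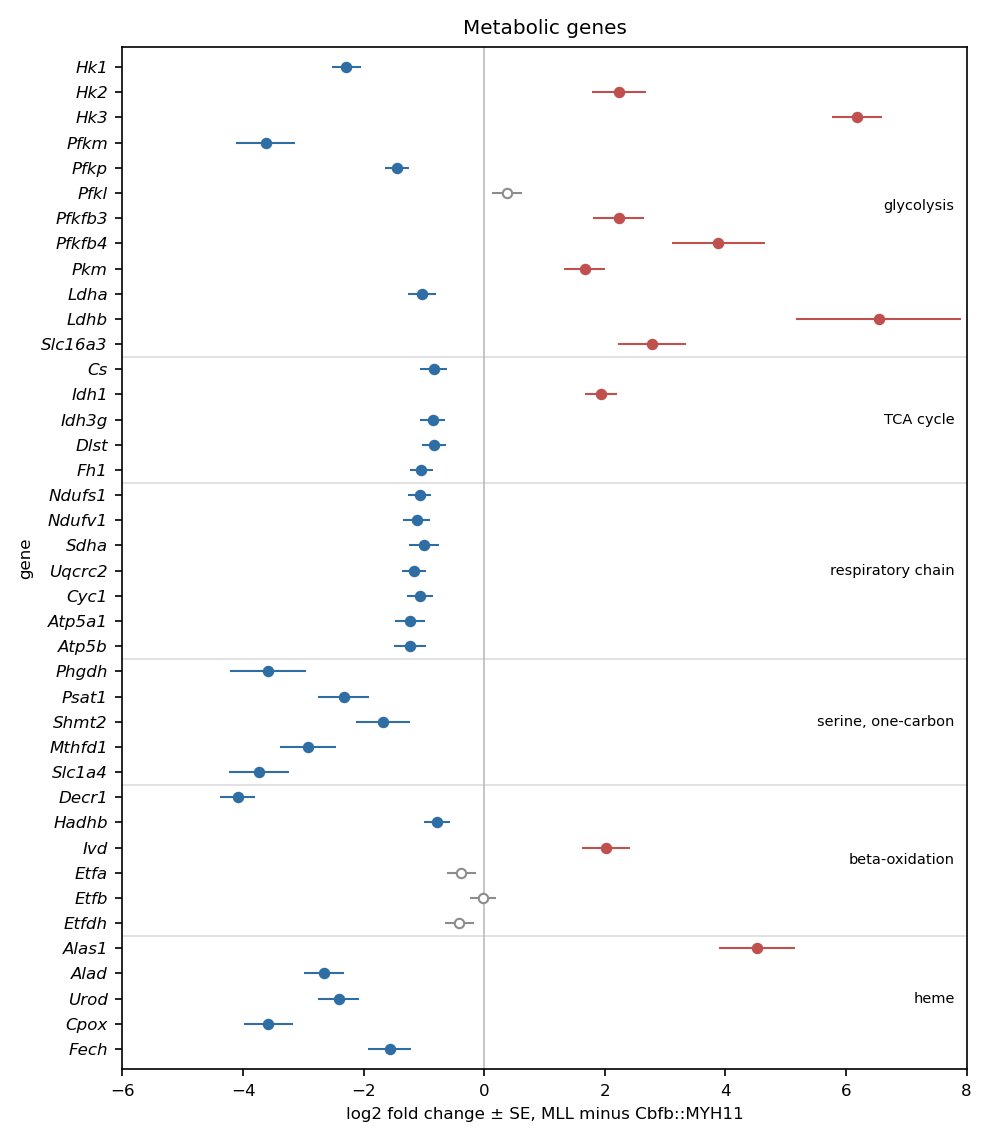
Log2 fold change, MLL minus Cbfb::MYH11, with its standard error for genes of glycolysis, the TCA cycle, the respiratory chain, serine and one-carbon metabolism, beta-oxidation and heme synthesis. Hk3 and Alas1 lie to the right of 0 while Hk1, Decr1, Phgdh and Cpox lie to the left, filled points passed the test and open points did not.

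Of 47 cytosolic ribosomal protein genes, 32 were lower and 0 higher with no overlap between the sides, against 20.4% and 19.5% of all genes. Summed over the list, CPM was 46750 to 64980 in the MLL libraries and 82200 and 118900 in Cbfb::MYH11 30 and 27. At an unadjusted edgeR p under 0.05, 27 were lower. Called were 8 lower and 0 higher (median -0.76), and the called lower share of 17.0% was close to the 12.4% of all genes. Elsewhere there were 24 lower by DESeq2 and 3 lower with libraries labelled female. Leaving out Cbfb::MYH11 30 gave 5 and leaving out Cbfb::MYH11 27 gave 0. Leaving out MLL::AF9 47 gave 5, leaving out MLL::ENL NO gave 5, and leaving out MLL::ENL RL gave 4. Rps2 was between 1656 and 2668 CPM (median 2210.4) in the 6 MLL libraries and 4887 and 6803 CPM in Cbfb::MYH11 30 and 27 (log2 fold change -1.45, SE 0.32, adjusted p = 0.0092; 0.13 without Cbfb::MYH11 27). Ribosomal protein genes have many processed copies that can share their reads. Rack1, a ribosome-bound scaffold, was between 1285 and 1818 CPM (median 1433) against 2949 and 4356 CPM (log2 fold change -1.32, SE 0.29, adjusted p = 0.0098; 0.16 without Cbfb::MYH11 27). Of 29 ribosome biogenesis genes, 8 were lower and 0 higher (median -0.87), with 2 and 1 lower without Cbfb::MYH11 30 and 27. The lower share of ribosome biogenesis genes was 27.6%, against 12.4% of all genes. Polr1c, a subunit of RNA polymerase I and III, was between 26.4 and 46.9 CPM (median 36.5) against 90.2 and 153 CPM (log2 fold change -1.76, SE 0.26, adjusted p = 0.0012).

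Cell cycle genes gave few calls. None of 22 mitosis genes was called by edgeR, DESeq2 or limma-voom (median 0.04), and 4 were lower at an unadjusted p under 0.05. Mki67, the proliferation marker, was between 289 and 716 CPM (median 365) in the 6 MLL libraries and at 857 and 188 CPM in Cbfb::MYH11 30 and 27, the latter pair enclosing the MLL range. Among 28 replication genes, 11 were lower and 0 higher with no overlap between the sides, against 20.4% and 19.5% of all genes. Of the 28, 4 were called lower (14.3%, near the 12.4% of all genes) and 1 higher (median -0.45). There were 0 higher and 1 lower with Cbfb::MYH11 30 left out, and 0 higher and 1 lower with Cbfb::MYH11 27 left out, and 7 lower without MLL::AF9 47. Other settings gave 1 lower with libraries labelled female and 2 lower with the MLL libraries as 1 group. In the Myc, Myb and D cyclin list, 3 of 22 were higher (13.6%, near the 13.2% of all genes) and 1 lower. There were 1 higher and 1 lower with Cbfb::MYH11 30 left out, and 0 higher and 1 lower with Cbfb::MYH11 27 left out. Alternatives gave 6 higher by DESeq2 and 5 higher with libraries labelled female. Ccnd2, cyclin D2, was lower, between 2.94 and 44.4 CPM (median 7.11) against 307 and 241 CPM (log2 fold change -4.61, SE 0.68, adjusted p = 0.0013), while Ccnd1 and Ccnd3 were not called (adjusted p = 0.26 and 0.07). Cdkn1c, the inhibitor p57, was higher with a wide spread, between 0.212 and 144 CPM (median 34.9) against 0 and 0.0581 CPM (adjusted p = 0.0061; 0.06 without Cbfb::MYH11 30 and 0.061 without Cbfb::MYH11 27).

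Among 17 BCL-2 family genes, 2 were higher (11.8%) and 1 lower (5.9%), no more than the 13.2% and 12.4% of all genes. There were 1 higher and 1 lower with Cbfb::MYH11 30 left out, and 0 higher and 1 lower with Cbfb::MYH11 27 left out. Bbc3, the death activator PUMA, was lower, between 4.78 and 12.9 CPM (median 7.3) in the 6 MLL libraries and 39.8 and 52.4 CPM in Cbfb::MYH11 30 and 27 (log2 fold change -2.57, SE 0.34, adjusted p = 0.00074), and Pmaip1, the activator NOXA, was higher, between 8.84 and 67.7 CPM (median 34.3) against 3.66 and 0.872 CPM (log2 fold change 3.93, SE 0.78, adjusted p = 0.0057; 0.057 without Cbfb::MYH11 27). The survival genes Bcl2, Bcl2l1 and Mcl1 were not called (adjusted p = 0.61, 0.74 and 0.38).

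Taken singly against the same 2 Cbfb::MYH11 libraries, MLL::AF9 gave 1918 higher (12.9%) and 1438 lower genes (9.67%, 22.6% in all), and MLL::ENL gave 1639 higher (11%) and 1347 lower (9.06%, 20.1% in all). Of the 3806 genes called for the combined MLL groups, 2397 were called in the same direction in both. These contrasts share their controls and the combined contrast is their mean, so this count does not measure agreement between the MLL groups. Without Cbfb::MYH11 27 the totals were 1072 for MLL::AF9 and 1086 for MLL::ENL, and without Cbfb::MYH11 30 they were 1872 and 1757. Log2 fold changes against Cbfb::MYH11 were 6.23 (SE 0.73) for MLL::AF9 and 6.07 (SE 0.73) for MLL::ENL in Itgam, 7.95 (SE 0.99) for MLL::AF9 and 7.92 (SE 0.99) for MLL::ENL in Cebpe, and -9.98 (SE 1.22) for MLL::AF9 and -9.78 (SE 1.22) for MLL::ENL in Il1rl1. Cebpe and Il1rl1 passed a naming rule that required the same call in both single contrasts. Hoxa9 had 3.91 (SE 0.99) for MLL::AF9 and 4.79 (SE 1.04) for MLL::ENL, and Kit had -2.42 (SE 0.41) for MLL::AF9 and -1.56 (SE 0.4) for MLL::ENL. The 2 MLL groups differed from each other in 2 of 14875 genes (0.0134%), Dpp4 and Gm9008, both lower in MLL::ENL, and 1514 genes had an unadjusted p under 0.05. DESeq2 called 481 genes and limma-voom 0 in that contrast. The count was 142 without MLL::AF9 47 and 0 without any 1 of the MLL::ENL libraries.

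**Figure D4:**
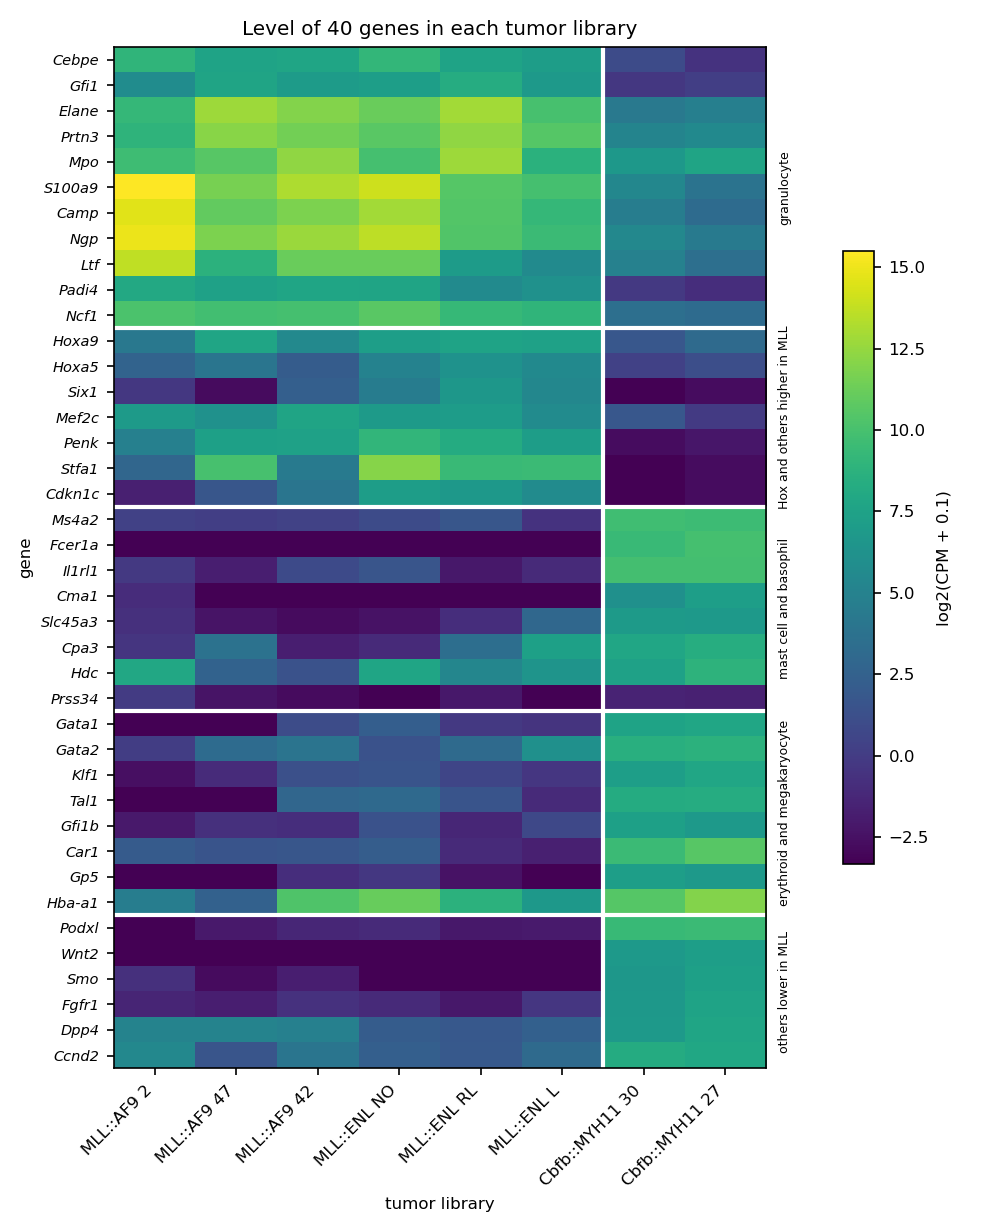
Expression as log2(CPM + 0.1) of 40 genes (rows) in the 8 tumor libraries (columns, MLL::AF9, MLL::ENL, Cbfb::MYH11), with color from low to high. The 2 Cbfb::MYH11 columns differ from all 6 MLL columns in most genes of each block. MLL::AF9 2 and MLL::ENL NO are the highest in S100a9, Camp and Ngp. The genes shown include some named by rules that required no overlap between the sides, among them S100a9, Camp and Ngp. For genes named this way, the separation was a condition of the rule and not a result.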

How the data were processed

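RNA sequencing libraries of 10 mice were used, 8 from tumors and 2 from WT marrow. According to the processing notes of the submitters, the authors checked reads with FastQC, aligned them with STAR to mm10 and estimated gene levels with RSEM, and the versions are not given in the sources used here. The deposited expected counts of RSEM, which divide reads shared by similar genes, were rounded to whole numbers, and the deposited TPM values, scaled by the authors for length and depth, were used only to compare levels between genes.

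Groups were taken from the AML subtype labels. Genes passing filterByExpr were fitted in 1 model of 4 group means over all 10 libraries with edgeR 4.0.16 (TMM scaling, quasi-likelihood test, R 4.3.3), with 6 residual degrees of freedom and a common biological coefficient of variation of 0.5152. Adjusted p is Benjamini-Hochberg over all 14875 genes tested, and a gene was called at an adjusted p under 0.05. Standard errors were derived from the fold change and the F statistic. CPM are on TMM-scaled totals. DESeq2 1.42.0, limma-voom (limma 3.58.1), other scalings, no filter, tumor libraries alone, the MLL libraries as 1 group, libraries labelled female and each library left out in turn were alternatives. The scripts were tested on simulated data. The files of 92 symbols hold several entries each. With estimated counts of 12134917 to 19345838 per tumor library, a floor of 3 counts per library was used for genes at 0.

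Genes were named by rule in each direction. The 10 graded genes had the largest fold change among genes called the same way in both single MLL group contrasts. They also had no overlap between the MLL and Cbfb::MYH11 libraries, and means of at least 20 CPM in the higher and 1 CPM in the lower group. The 6 abundant genes met the same conditions with an absolute log2 fold change of at least 1. The 8 near-absent genes were under 0.5 CPM in every library of the lower group. Genes that also differed between the MLL groups were named too, and up to 4 members of each list by adjusted p. Members against the majority and members without a call were given as values. The members and the 43 lists (735 genes, 713 tested) were chosen with earlier results of these data known, and further list members named as examples were chosen after their values were seen. The file names of the records titled AF9_42 and AF9_47 are interchanged, and files were assigned by record. As both are MLL::AF9 libraries, group means are the same either way. Promoter sequences are from RefSeq (GRCm38.p6, 32851 promoters of 27025 genes). Some genes of the lists are not reported by name here.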

Additional observations from a re-analysis of the deposited data

Results flagged for a closer look

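Among 49 results tested in the 6 MLL libraries, 17 had a single library that stood apart. Its gap to the nearest other library relative to the range exceeded the 95% critical value of Dixon's test for 6 samples. Chance passes that value in about 1 of 20 groups when values are normally distributed. The test used CPM on a linear scale, where values were skewed, so the rate of chance passes here is not known. The flags of Cma1 and Shank3 rested on levels under 0.5 CPM. MLL::AF9 2 stood out in 5 genes, S100a9 (45950.0 CPM, next 16970.0), Camp (25010.0 CPM, next 7515), Lyz2 (12270.0 CPM, next 4870.0), Gnb4 (6.155 CPM, next 0.6416) and Cma1 (0.4244 CPM, next 0). MLL::ENL NO stood out in 7 genes. These were the AML surface antigen Cd33 (689.0 CPM, next 274.5) and the stefin genes Stfa1 (4219 CPM, next 1039), BC100530 (3769 CPM, next 859.7), Gm5483 (3179 CPM, next 532.6), Stfa2l1 (1302 CPM, next 120.9), Stfa3 (958.7 CPM, next 105.4) and Stfa2 (915.3 CPM, next 80.39). MLL::ENL L stood out in the mast cell genes Slc45a3 (7.717 CPM, next 0.4952) and Gata2 (69.87 CPM, next 14.76). The library labelled MLL::AF9 42 stood out in Shank3 (0.1974 CPM, next 0.04512), Rack1 (1818 CPM, next 1483) and Serinc3 (1357 CPM, next 791.5).

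Dpp4 differed between the MLL groups by the test of the difference itself, with a log2 fold change of -2.86 for MLL::ENL minus MLL::AF9 (edgeR adjusted p = 0.0369), and each MLL::ENL library lay below each MLL::AF9 library. The call was lost by limma-voom (adjusted p = 0.072), with libraries labelled female (0.067), and without MLL::AF9 2 (0.065), MLL::AF9 42 (0.072) or any 1 of the MLL::ENL libraries (0.10 to 0.35).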

How the results depend on the processing

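Leaving out each of the 10 libraries in turn gave 674 to 2063 genes higher and 765 to 1894 lower in the MLL tumors, 1072 to 3690 genes called for MLL::AF9 and 1086 to 3453 for MLL::ENL against Cbfb::MYH11, and 0 to 142 between the MLL groups. The lowest counts against Cbfb::MYH11 came without Cbfb::MYH11 27, which leaves 1 library on that side whose spread is taken from the other groups. Of the 3806 calls, 2060 were kept without Cbfb::MYH11 30, 1414 without Cbfb::MYH11 27, 3738 by DESeq2 and 3302 by limma-voom. With libraries labelled female alone, where MLL::AF9 is 1 library (47) with its spread taken from the other groups and the MLL libraries hold Y-linked transcripts, MLL::AF9 gave 1858 calls and the MLL groups differed in 15 genes. Between the MLL groups, 299 genes were called with no low-count filter, 481 by DESeq2 and 0 by limma-voom, and the cause was not tested. An alternative added after seeing the data kept libraries without Y-linked transcripts, which leaves MLL::AF9 42 as the 1 MLL library with its spread taken from the other groups, and gave 2632 calls against Cbfb::MYH11. Of 179 named genes with a call, 98 kept it under every alternative that gave a value and 0 reversed. Calls were lost for 74 genes without Cbfb::MYH11 27, for 47 without Cbfb::MYH11 30, for 18 by limma-voom and for 14 with libraries labelled female, and 0 were lost by DESeq2, which gave no adjusted p for 9 of them and for 34 of the 3806 calls. The share of calls that were higher was 51.5% in edgeR, 44.0% by limma-voom and 55.7% by DESeq2. The median log2 fold change over all genes moved from 0.08 to 0.32 with no filter and to 0.24 without Cbfb::MYH11 30. No paired analysis was possible because the labels give the tumor groups no shared replicate numbers.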
